A study of Mus musculus with 10 samples.

Results

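Troponin is the calcium switch of the striated muscle thin filament, and the genes of its subunits are described here in 2 muscles of the mouse leg. The members were the 8 troponin T, I and C genes that the array annotation names by symbol: Tnnt1, Tnnt2, Tnnt3, Tnni1, Tnni2, Tnni3, Tnnc1 and Tnnc2. All 8 were found among the 19938 genes measured, each with 1 probe set, a group of short probes on the Affymetrix Mouse Gene 1.0 ST array whose signals are summarized as 1 value. RNA was measured on 10 arrays, and signals are given on the log2 scale, where a step of 1 is a doubling.

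Groups were as follows in the sample labels and the methods. All mice were labelled strain C56BL6N at an age of 8 weeks, while the methods give 2 different ages for electroporated mice. In the tibialis anterior (TA), 10 µg of a plasmid was given by electroporation, and GFP-positive fibers were dissected 2 weeks later. The plasmid of 2 arrays carried shlincMYH, an shRNA against linc-MYH, which is a long noncoding RNA transcribed beside the fast myosin genes. Another 2 arrays had the control vector, and for such knockdowns the methods put shLacZ, which targets a bacterial gene, into the opposite TA of the mouse. In the gastrocnemius, 3 arrays came from cSix1 KO mice and 3 from wild type mice. In cSix1 KO mice a floxed gene is deleted by a Cre under the human skeletal actin promoter, so other cell types of the muscle keep it. The control mice, labelled wild type, were compared as they stand, since the sources do not say whether they carried floxed alleles or Cre. No probe set used here carried linc-MYH as its single gene, and neither the knockdown nor the deletion was analysed here. For electroporation the methods state that the muscles of a condition were from different mice, but the labels tie no array to an animal, and for the gastrocnemius no source says so. So p-values measure the spread between these arrays, which may be technical.

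Each troponin complex holds 1 subunit of each kind. Troponin C binds calcium, troponin I holds actin and myosin apart at rest, and troponin T ties the complex to tropomyosin. Slow fibers use Tnnt1, Tnni1 and Tnnc1, fast fibers use Tnnt3, Tnni2 and Tnnc2, and the heart uses Tnnt2 and Tnni3 with the slow troponin C. Tnnt2 is also used by embryonic skeletal muscle and reappears in regenerating fibers, while Tnni3 is largely restricted to the heart.

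The regulatory sequence just before the start sites is shown for the slow troponins and Tnnt2, which were higher, and for Tnnc2, the fast troponin with a promoter entry. Tnnc2 also stood apart between the groups, lower by 0.004 between the nearest arrays in TA and by 0.122 in the gastrocnemius. RefSeq promoters of build GRCm38.p6 were held for 6 of the 8 members; Tnnt3 and Tnni2 have no entry. The lines give 250 bases, 5′ to 3′ on the strand of the gene, ending at the base before the start site. Capitals mark matches on either strand to the E-box CANNTG, bound by MyoD-family factors, to the M-CAT element CATTCC, to the TATA box TATAAA, to the MEF2 site, or to a MEF3 site, an element of muscle gene promoters.

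Tnnt1, chr7:4515976-4516225, minus strand: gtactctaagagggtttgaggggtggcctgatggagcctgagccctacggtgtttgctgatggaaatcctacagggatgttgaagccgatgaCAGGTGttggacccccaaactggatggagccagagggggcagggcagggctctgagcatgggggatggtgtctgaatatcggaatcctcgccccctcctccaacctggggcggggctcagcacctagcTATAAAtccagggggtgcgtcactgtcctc
Tnni1, chr1:135799171-135799420, plus strand: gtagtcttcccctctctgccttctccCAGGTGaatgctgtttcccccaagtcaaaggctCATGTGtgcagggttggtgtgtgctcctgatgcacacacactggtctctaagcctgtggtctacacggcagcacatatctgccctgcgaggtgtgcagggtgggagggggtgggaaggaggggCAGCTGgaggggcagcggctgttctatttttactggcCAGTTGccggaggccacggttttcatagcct
Tnnc1, chr14:31208062-31208311, plus strand: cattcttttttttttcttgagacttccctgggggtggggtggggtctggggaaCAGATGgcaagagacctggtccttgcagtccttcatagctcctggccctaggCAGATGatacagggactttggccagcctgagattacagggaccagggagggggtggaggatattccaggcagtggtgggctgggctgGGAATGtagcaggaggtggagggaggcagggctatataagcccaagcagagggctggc
Tnnt2, chr1:135836084-135836333, plus strand: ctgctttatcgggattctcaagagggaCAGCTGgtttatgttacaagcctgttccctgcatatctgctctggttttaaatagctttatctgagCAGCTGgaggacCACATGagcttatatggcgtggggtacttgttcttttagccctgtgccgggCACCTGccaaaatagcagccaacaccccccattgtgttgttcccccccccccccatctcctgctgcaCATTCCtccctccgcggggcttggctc
Tnnc2, chr2:164779735-164779984, minus strand: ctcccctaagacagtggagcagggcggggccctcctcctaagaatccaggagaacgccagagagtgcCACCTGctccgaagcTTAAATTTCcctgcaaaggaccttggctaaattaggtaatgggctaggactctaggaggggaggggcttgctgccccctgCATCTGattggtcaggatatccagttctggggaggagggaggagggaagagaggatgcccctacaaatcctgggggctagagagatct

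The MEF3 search used the 14 different sequences of 9 bases among the sites that the study had tested for binding, on both strands: gaaaccgga, gaaacctga, gaaacttga, gaaatctaa, gaaatctga, gaaattgaa, gaaatttaa, gcaagcaga, gcaaggcga, ggaacttga, gtaacctga, gtaactgga, gtaatttaa and gtaatttga. The single match among the members lay in Tnnc2, on the strand opposite to the gene, at -168 to -160 from the start site. Its sequence, gaaatttaa, is listed by the study for a fragment of chromosome 2, the chromosome of Tnnc2, in another genome build. The positions were not converted between builds. The match may thus be a site that the search list was made from, and it is then no result of the search. Of all 32851 promoters of this length, 3.22% held a match. Tnnt1 held a TATA box at -30 to -25 (12.4% of all promoters), and M-CAT elements (12.6%) lay at -58 to -53 in Tnnc1 and at -27 to -22 in Tnnt2. E-boxes were found in 66.2% of all promoters and in each of the 5 shown, with 4 in Tnni1, 4 in Tnnt2, 2 in Tnnc1, 2 in Tnnc2 and 1 in Tnnt1. Tnni1 and Tnnt2 each had another promoter entry, for another start site, which is not shown. That of Tnni1 held 2 E-boxes, and that of Tnnt2 held 1 E-box and no M-CAT element, so these counts belong to the windows and not to the genes. MEF2 sites (2.92%), CArG boxes (1.47%) and the GATA sequence GATAAG (6.55%) had no match in these 5 windows. The marked matches did not overlap each other. They describe the letters of these windows and say nothing about binding.

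The 3 slow troponins and Tnnt2 rose in cSix1 KO gastrocnemius. In TA with shlincMYH the same 4 genes had higher signals on both arrays than on either control array, but none passed the test over all genes. The 3 fast troponins and Tnni3 passed in neither comparison. In the gastrocnemius the calls of Tnnt1 and Tnni1 were lost without cSix1 KO replicate 1 (adjusted p = 0.0528 and 0.0600 from limma) or without replicate 2 (0.0580 and 0.0596), and all 4 calls were lost with the methods' t-test (adjusted p from 0.159 to 0.279). In the gastrocnemius limma called 4 of the 8 members higher, where 0.908% of all genes were called higher, and 0 lower, where 0.833% were. In TA it called 0 of the 8, where 0.015% of all genes were called higher and 0 lower. At an unadjusted p under 0.05 from limma, 4 members were higher in TA (4.27% of all genes) and 0 lower (4.37%), and in the gastrocnemius 4 were higher (8.44%) and 1 lower (6.5%). In TA the count depended on the test. The methods' t-test gave an unadjusted p of 0.0294 for Tnni1, but 0.12 for Tnnt1, 0.168 for Tnnc1 and 0.109 for Tnnt2. The slow troponins and Tnnt2 were at least 2-fold higher in TA, as 0.286% of all genes were, and also in the gastrocnemius (0.291%), while 0 members were 2-fold lower (0.0451% and 0.13%). In RNA of many fibers, whether of gastrocnemius or of dissected TA fibers, more fibers of a kind and more RNA of a gene in each fiber cannot be told apart.

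**Figure D1:**
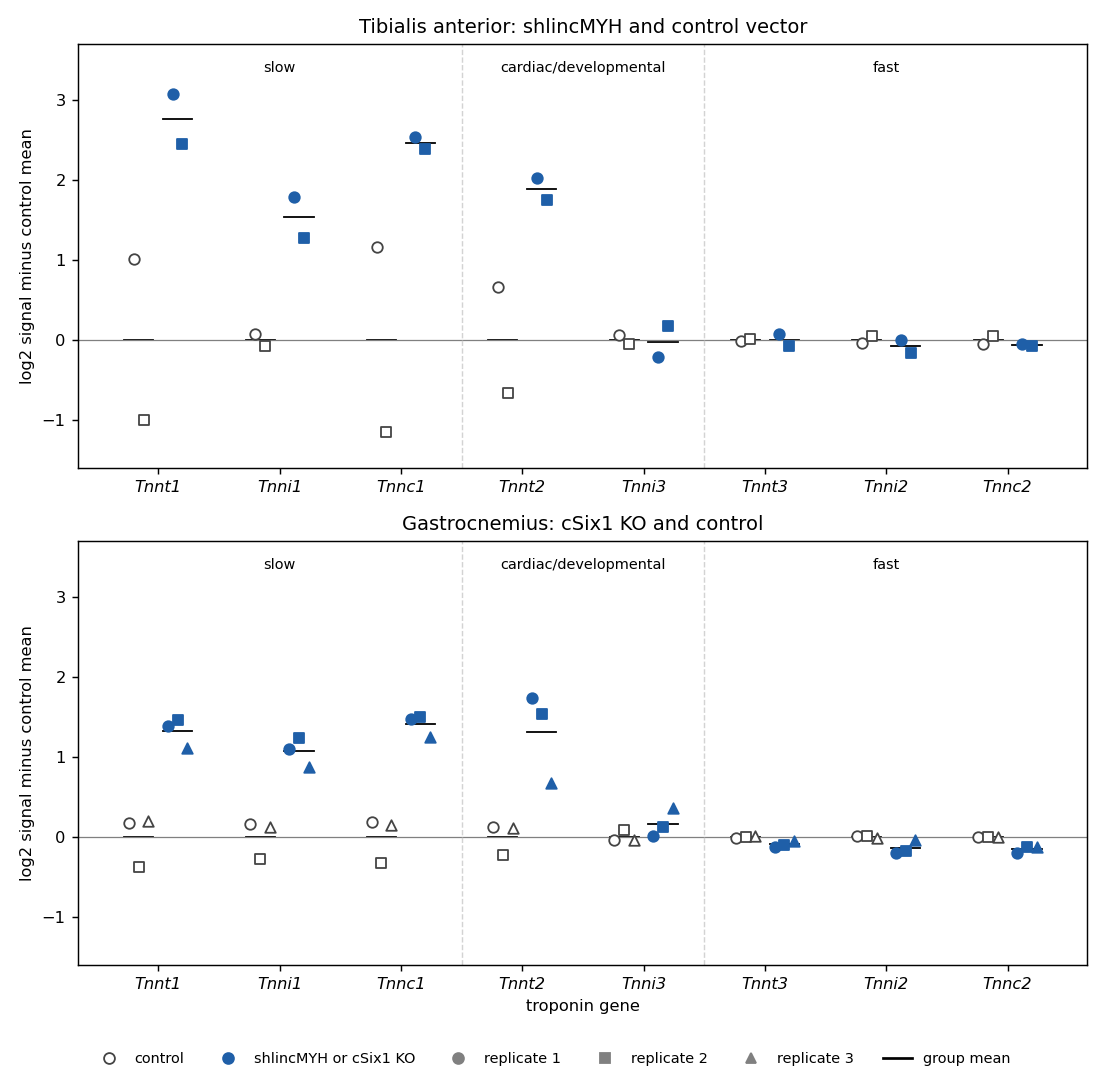
Log2 signal of each troponin gene on each array minus the mean of the control arrays of the same tissue, with TA above and gastrocnemius below. Open symbols are control arrays, filled symbols shlincMYH or cSix1 KO arrays, shapes give the replicate and lines the group means; the slow troponins and Tnnt2 stand above their controls in both tissues, while the 2 TA control arrays lie far apart for Tnnt1, Tnnc1 and Tnnt2.

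Tnnt1 encodes the slow troponin T. In the gastrocnemius its signal was 10.46, 9.91 and 10.48 on the control arrays and 11.67, 11.74 and 11.39 on the cSix1 KO arrays. Every cSix1 KO array lay above every control array, with 0.914 between the nearest ones. The log2 fold change was 1.32 (standard error 0.16, n = 3 against 3, adjusted p = 0.0118 from limma), a fold of 2.50. In TA the signal was 8.011 and 5.997 on the control arrays and 10.07 and 9.46 on the shlincMYH arrays. Both shlincMYH arrays were higher than both controls, but the controls differed from each other by 2.01, more than the gap of 1.44 between the groups. For the TA log2 fold change limma gave a 95% confidence interval of 1.30 to 4.22.

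Tnni1 encodes the slow troponin I. Gastrocnemius signals were 10.07, 9.64 and 10.04 on the control arrays and 11.02, 11.15 and 10.78 on the cSix1 KO arrays. The groups were apart by 0.711, and the log2 fold change was 1.07 (standard error 0.14, n = 3 against 3, adjusted p = 0.0136 from limma). TA signals were 6.18 and 6.02 on the control arrays and 7.89 and 7.38 on the shlincMYH arrays. Here the 2 TA control arrays differed by 0.152, unlike for Tnnt1 and Tnnc1, and the groups were apart by 1.20. In TA the 95% confidence interval was 1.08 to 1.99 for this log2 difference, and limma gave an unadjusted p of 0.000145 and an adjusted p of 0.148.

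Tnnc1 encodes the troponin C shared by slow fibers and the heart. Its signal was 10.80, 10.29 and 10.76 on the gastrocnemius control arrays and 12.09, 12.11 and 11.86 on the cSix1 KO arrays. The groups were apart by 1.06, and the log2 fold change was 1.40 (standard error 0.14, n = 3 against 3, adjusted p = 0.00596 from limma), a fold of 2.65. In TA it was 8.06 and 5.74 on the control arrays and 9.43 and 9.29 on the shlincMYH arrays. The TA control arrays differed by 2.32 while the shlincMYH arrays differed by 0.142, and the log2 fold change had a 95% confidence interval of 0.86 to 4.07. Control replicate 1 was the higher of the pair for all 3 slow troponins, and gastrocnemius control replicate 2 was the lowest control array for all 3.

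Tnnt2, the troponin T of the heart and of developing muscle, had the widest spread among the cSix1 KO arrays of the 8 members. Its gastrocnemius signal was 8.557, 8.205 and 8.552 on the control arrays and 10.17, 9.98 and 9.12 on the cSix1 KO arrays. Replicate 3 of the cSix1 KO arrays was 1.05 below replicate 1, yet 0.560 above the highest control array. The log2 fold change was 1.32 (standard error 0.25, n = 3 against 3, adjusted p = 0.0481 from limma). This call was lost without any of the other 5 arrays, with adjusted p from 0.102 to 0.181 in limma, and kept without cSix1 KO replicate 3 (1.64, adjusted p = 0.00315). In TA the signal was 8.60 and 7.27 on the control arrays and 9.96 and 9.69 on the shlincMYH arrays, with 1.33 between the controls and 1.09 between the groups. Its TA log2 fold change had a 95% confidence interval of 0.92 to 2.85.

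Tnni3, the troponin I of the heart, overlapped between groups in both tissues. Its signal was 5.56 and 5.45 on the TA control arrays and 5.29 and 5.67 on the shlincMYH arrays. In the gastrocnemius it was 6.44, 6.55 and 6.43 on the control arrays and 6.48, 6.59 and 6.83 on the cSix1 KO arrays. The control means stood at percentile 54.7 of all genes in TA and 40.6 in the gastrocnemius, near the rank of the median gene. These are ranks and not places in the signal range, and Tnni3 was among the genes dropped when dim genes were left out. The log2 fold changes were -0.02 (standard error 0.16) and 0.16 (standard error 0.10), with adjusted p = 0.988 and 0.524 from limma. Of 6 other heart markers (Myh6, Nppa, Nppb, Myl7, Mybpc3 and Ryr2), 0 were called in TA, with control means at percentiles 30.4 to 48.2 and mean signals over the list of 4.72 to 4.78 on control and 4.63 to 4.66 on shlincMYH arrays. In the gastrocnemius 1 of the 6 rose (0.908% of all genes): Myh6, a myosin heavy chain of the heart (log2 fold change 0.77, adjusted p = 0.0118 from limma). The other 5 heart markers stood between -0.03 and 0.01, and the mean signal of the list was 6.32 to 6.36 on control and 6.37 to 6.55 on cSix1 KO arrays.

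The fast troponins had nearly level signals. Tnnt3, the fast troponin T, was at 12.82 and 12.84 on the TA control arrays and at 12.90 and 12.75 on the shlincMYH arrays, which enclose the controls. In the gastrocnemius it was at 13.64, 13.66 and 13.67 on the control arrays and at 13.52, 13.56 and 13.61 on the cSix1 KO arrays. The 3 cSix1 KO arrays were the lowest, by 0.0338 between the nearest arrays, and the log2 fold change was -0.09 (standard error 0.06, adjusted p = 0.579 from limma). With quantile normalization this value turned to 0.01.

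Tnni2, the fast troponin I, was at 12.64 and 12.73 on the TA control arrays and at 12.68 and 12.52 on the shlincMYH arrays. These TA groups overlapped. In the gastrocnemius it was at 13.10, 13.09 and 13.07 on the control arrays and at 12.89, 12.91 and 13.05 on the cSix1 KO arrays, with replicate 3 of the latter next to the controls. The log2 fold change there was -0.14 (standard error 0.07, 95% confidence interval from -0.30 to 0.02, adjusted p = 0.402 from limma).

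Tnnc2, the fast troponin C, was at 12.63 and 12.73 on the TA control arrays and at 12.63 and 12.60 on the shlincMYH arrays. The nearest arrays of the 2 TA groups were 0.004 apart. In the gastrocnemius the 3 control arrays were at 13.68 and the cSix1 KO arrays at 13.47, 13.55 and 13.56, which is 0.122 below the lowest control. The log2 fold change was -0.15 (standard error 0.06, 95% confidence interval from -0.29 to -0.01, adjusted p = 0.303 from limma). Control means of the 3 fast troponins stood at percentile 99.7 or higher in both tissues, where array signals can be compressed.

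Counted by arrays, 4 of the 8 members had both shlincMYH arrays above both controls in TA, as 16.3% of all genes did, and 1 had both below (23.0% of all genes). In the gastrocnemius 4 of the 8 had every cSix1 KO array above every control, as 11.0% of all genes did, and 3, the fast troponins, had every array below (9.85% of all genes). The median log2 fold change of the slow troponins was 2.46 in TA and 1.32 in the gastrocnemius, beside -0.07 and -0.14 for the fast troponins and -0.03 and 0.01 for all genes. In TA the median of the slow troponins was 1.46 without control replicate 2 and 3.62 without control replicate 1.

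**Figure D2:**
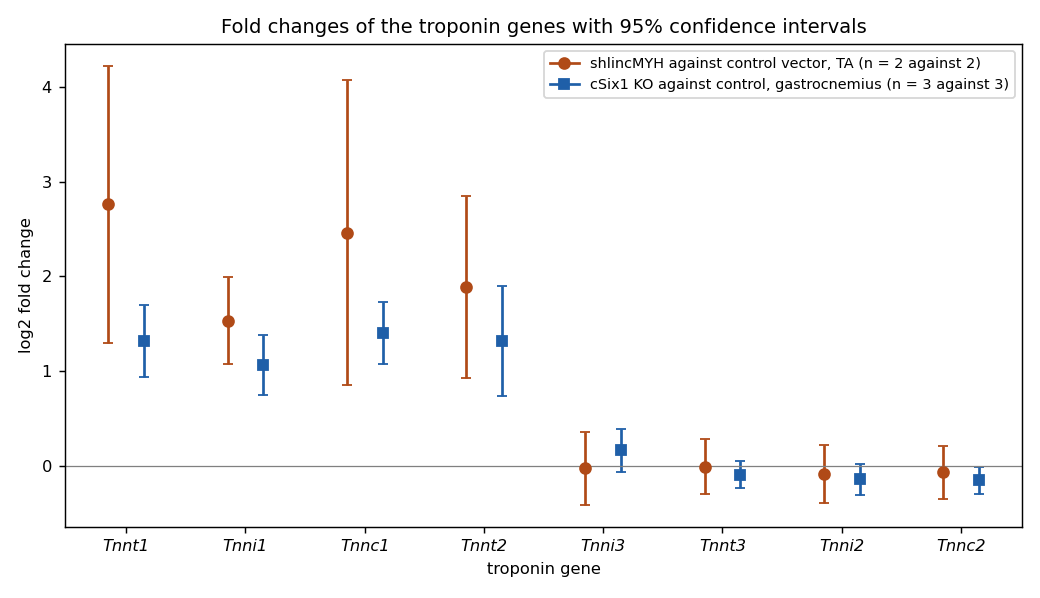
Log2 fold change of each troponin gene with its 95% confidence interval from limma, for shlincMYH against control vector in TA (circles) and cSix1 KO against control in gastrocnemius (squares). The intervals of the slow troponins and Tnnt2 lie above 0 in both comparisons and are wider in TA, while those of Tnni3 and the fast genes lie near 0.

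A muscle fiber needs all 3 subunits, so the slow isoform of each was set against the fast isoform of the same subunit on the same array, as the shift of the slow minus fast log2 signal from its control mean. A change of brightness that touches a whole array cancels in this measure. In the gastrocnemius the troponin T shift was 1.52, 1.56 and 1.16 on the cSix1 KO arrays and 0.19, -0.38 and 0.19 on the controls, a mean of 1.41 (standard error 0.23). The troponin I shift was 1.30, 1.42 and 0.91 against 0.15, -0.28 and 0.14, a mean of 1.21 (standard error 0.21). The troponin C shift was 1.68, 1.62 and 1.37 against 0.19, -0.33 and 0.14, a mean of 1.56 (standard error 0.19). For all 3 subunits every cSix1 KO array lay above every control array, and replicate 3 had the smallest shift of the cSix1 KO arrays.

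In TA the troponin T shift was 3.004 and 2.532 on the shlincMYH arrays and 1.02 and -1.02 on the controls, a mean of 2.77 (standard error 1.04). The troponin I shift was 1.79 and 1.44 against 0.12 and -0.12, a mean of 1.62 (standard error 0.21). The troponin C shift was 2.59 and 2.48 against 1.21 and -1.21, a mean of 2.53 (standard error 1.21). The groups did not overlap for any subunit in either tissue. The two-sided exact permutation test over arrays gave p = 0.333 in TA and p = 0.1 in the gastrocnemius for each subunit, which is the smallest value these numbers of arrays allow. Without TA control replicate 2 the means were 1.75, 1.50 and 1.32 for troponin T, I and C, and without control replicate 1 they were 3.79, 1.74 and 3.74.

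**Figure D3:**
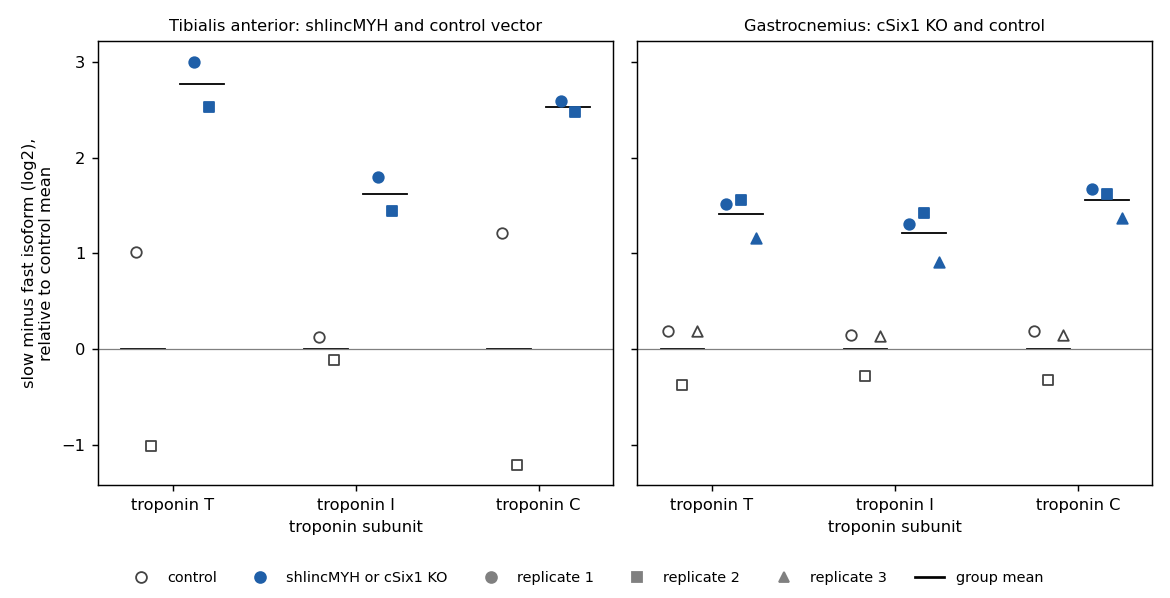
Slow minus fast log2 signal for troponin T (Tnnt1 and Tnnt3), I (Tnni1 and Tnni2) and C (Tnnc1 and Tnnc2) on each array, relative to the mean of the control arrays, in TA at the left and gastrocnemius at the right. Filled symbols (shlincMYH or cSix1 KO) lie above open symbols (control) throughout, between 0.91 and 1.68 in the gastrocnemius and between 1.44 and 3.004 in TA.

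Whether a troponin gene changed by another amount in the 2 comparisons was asked with limma over all 10 arrays, as the difference of the 2 fold changes. It called 0 of the 8 members, where 0.0752% of all genes were called higher and 0.0702% lower (0.145% in all), and 1 member, Tnnt1, at an unadjusted p under 0.05 (0.0433 from limma), where 5.21% of all genes were higher and 7.1% lower. The TA minus gastrocnemius difference of log2 fold changes was 1.44 for Tnnt1 (95% confidence interval from 0.05 to 2.83, adjusted p = 0.388 from limma), 1.06 for Tnnc1 (-0.44 to 2.55), 0.57 for Tnnt2 (-0.56 to 1.70) and 0.46 for Tnni1 (-0.08 to 1.01). For Tnni3 and the fast troponins it lay between -0.19 and 0.09. Without TA control replicate 1 the contrast called Tnnc1 (2.22, adjusted p = 0.0169 from limma), and without TA control replicate 2 its value was -0.10. Levels were not compared between tissues, because the 4 TA arrays and the 6 gastrocnemius arrays had distributions of their own, with medians of 5.09 to 5.14 and of 6.604 to 6.665.

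Troponin sits on actin and tropomyosin, and 10 genes of these partners were measured. In the gastrocnemius limma called 1 of the 10 higher (0.908% of all genes) and 0 lower (0.833%), and the median log2 fold change was -0.07. Counted by arrays, 6 of the 10 had every cSix1 KO array below every control (9.85% of all genes) and 2 had every one above (11.0%). The gene that rose was Tpm3, the slow tropomyosin, from 11.95, 11.58 and 11.96 on the control arrays to 12.86, 12.97 and 12.73 on the cSix1 KO arrays (log2 fold change 1.03, standard error 0.12, adjusted p = 0.00892 from limma). In TA, where 0 of the 10 were called and the median was -0.09, Tpm3 was 9.08 and 7.71 on the control arrays and 7.77 and 7.84 on the shlincMYH arrays. Both shlincMYH arrays thus lay within the range of the controls, and control replicate 1 was the highest of the 4 arrays, whereas for the slow troponins both shlincMYH arrays lay above it. The TA minus gastrocnemius difference for Tpm3 was -1.62 (adjusted p = 0.187 from limma). Lmod2, a leiomodin that lengthens thin filaments, was at 0.65 in TA and 0.50 in the gastrocnemius (adjusted p = 0.0583 from limma), with groups apart in both. Actc1, the cardiac actin of developing muscle, was at -0.26 and -0.55, and Tmod1, a cap of the filament end, at -0.17 and -0.15. None of these 3 passed.

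Among 7 slow-fiber genes outside troponin, 6 rose in cSix1 KO gastrocnemius (0.908% of all genes), 0 fell (0.833%), and the median was 0.93. The log2 fold changes were 2.36 for Sln, the sarcolipin that inhibits the calcium pump, 1.15 for Myh7, the slow myosin heavy chain, 0.93 for Myl2 and 0.72 for Myl3, the slow myosin light chains, 0.83 for Atp2a2, the slow calcium pump, and 0.49 for Myh7b, a slow-type myosin. Their adjusted p from limma lay between 0.00292 and 0.046. Casq2, a calsequestrin of slow and cardiac muscle, was at 0.94 without passing. In TA 0 of the 7 were called and the median was 0.65. Sln at 1.71, Casq2 at 1.11 and Atp2a2 at 0.76 had both shlincMYH arrays above both controls, as the slow troponins had. Myl2, Myl3, Myh7 and Myh7b overlapped between the TA groups, at 0.65, 0.002, -0.33 and -0.09. The TA minus gastrocnemius difference for Myh7 was -1.48 (adjusted p = 0.0632 from limma), opposite in sign to that of the slow troponins.

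**Figure D4:**
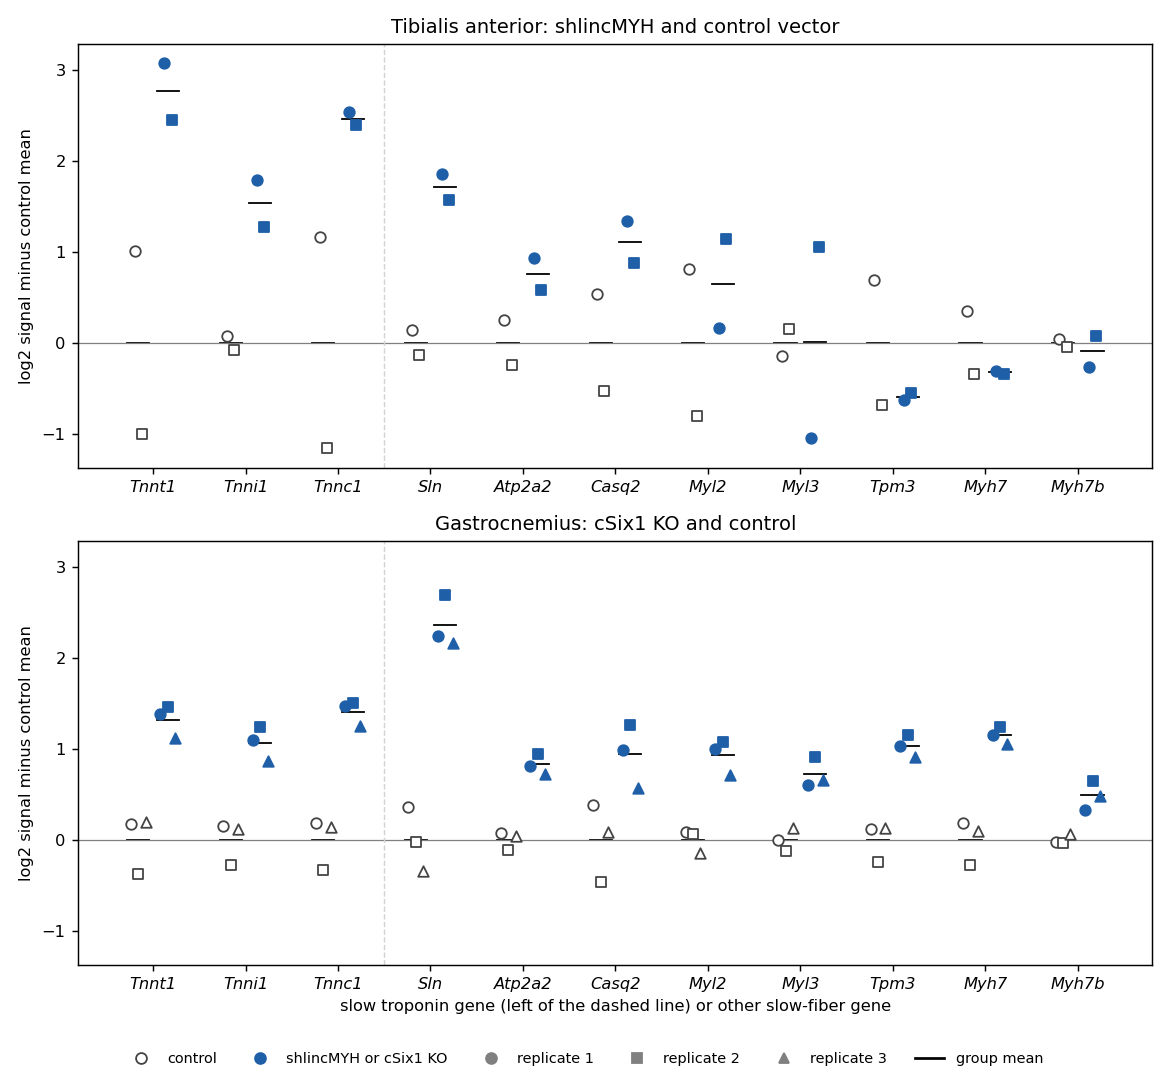
Log2 signal minus control mean on each array for the 3 slow troponins and 7 other slow-fiber genes plus Tpm3, in TA (above) and gastrocnemius (below). In the gastrocnemius all filled symbols lie above the open ones for each gene, whereas in TA this holds for the troponins, Sln, Atp2a2 and Casq2 and not for Myl2, Myl3, Tpm3, Myh7 and Myh7b.

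Of 8 fast-fiber genes outside troponin, limma called 0 in either tissue, with medians of -0.08 in TA and -0.17 in the gastrocnemius. In the gastrocnemius 6 of the 8 had every cSix1 KO array below every control, as 9.85% of all genes and the 3 fast troponins had. The same held for 6 of the 10 thin filament partners and for 5 of 6 skeletal muscle markers, which include Myh4 and Mylpf of this list. The pattern was thus not particular to fast-fiber genes. The lowest of the 8 was Pvalb, the calcium buffer parvalbumin (-0.41, adjusted p = 0.0525 from limma). Mybpc2, the fast myosin-binding protein C, and Casq1, the fast calsequestrin, were both at -0.25, and Mylpf, the fast regulatory light chain, was at -0.23. Myh1, a fast myosin heavy chain, was the gene of the list that had every cSix1 KO array above every control (0.13). Tnnc2 was the single fast troponin with an unadjusted p under 0.05 in the gastrocnemius (0.0403 from limma). In TA Pvalb, Mybpc2, Casq1 and Mylpf were at -0.05, -0.11, -0.03 and -0.01. The 2 genes of the list with both shlincMYH arrays below both TA controls were Myh4, the fastest myosin heavy chain (-0.34, adjusted p = 0.651 from limma), and Atp2a1, the fast calcium pump (-0.17, adjusted p = 0.739).

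Tnnt2 was read beside other developmental genes. Of 4 developmental sarcomere genes outside troponin, 1 rose in cSix1 KO gastrocnemius (0.908% of all genes). It was Myh8, the perinatal myosin heavy chain, with a log2 fold change of 0.83 (adjusted p = 0.0483 from limma). Myh3, the embryonic myosin heavy chain, was at 0.64 and Myl4, an embryonic light chain, at 0.64, each with overlapping groups. In TA 0 were called, and Myh3 at 1.81, Myl4 at 1.72 and Myh8 at 1.61 had both shlincMYH arrays above both controls, close to the 1.89 of Tnnt2. Actc1, the remaining member of the list, went the other way, at -0.26 in TA and -0.55 in the gastrocnemius. There every cSix1 KO array was below every control for Actc1. Control means of Actc1 stood at percentile 99.9 in TA and 99.8 in the gastrocnemius, as high as the fast troponins. Those of Myh3, Myh8 and Myl4 stood at 59.9 to 86.7 and at 45.9 to 94.9. The median of the list was 1.67 in TA and 0.64 in the gastrocnemius.

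Of 6 genes that respond to denervation or regeneration, 2 rose in cSix1 KO gastrocnemius (0.908% of all genes) and 0 fell (0.833%). These were Chrng, the fetal acetylcholine receptor subunit (1.11, adjusted p = 0.0103 from limma), and Myog, myogenin (0.82, adjusted p = 0.0395). Counted by arrays, 4 of the 6 had every cSix1 KO array above every gastrocnemius control (11.0% of all genes). In TA all 6 had both shlincMYH arrays above both controls (16.3% of all genes), with a median of 1.27, and 0 were called. Runx1, a transcription factor induced by denervation, was at 8.08, 7.86 and 8.61 on the gastrocnemius control arrays and at 10.40, 9.84 and 8.91 on the cSix1 KO arrays. It shared with Tnnt2 a cSix1 KO replicate 3 closer to the controls than replicates 1 and 2. Chrna1, the alpha subunit of the muscle acetylcholine receptor, was at 10.33, 10.19 and 9.41 on the cSix1 KO arrays and at 9.22, 8.53 and 9.44 on the controls. The part of these genes in the result of Tnnt2 was not tested.

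Markers of other cells were read beside the troponins. Of 5 macrophage markers 1 was called higher in cSix1 KO gastrocnemius (0.908% of all genes): Mrc1, a mannose receptor (0.77, adjusted p = 0.0139 from limma). By arrays, 4 of the 5 had every cSix1 KO array above every control (11.0% of all genes). The mean signal of that list was 7.54 to 7.79 on control and 8.03 to 8.83 on cSix1 KO arrays. In TA 0 of the 5 were called, and the mean signals of 6.17 to 6.28 on shlincMYH arrays lay within the 5.83 to 6.45 of the controls. Of 5 endothelial markers 4 were lower on both shlincMYH arrays in TA (23.0% of all genes), with a median of -0.78 and mean signals of 6.25 to 6.93 against 7.25 to 7.31. None of the 5 endothelial markers was called, in TA or in the gastrocnemius, where the median was -0.002 and the mean signals of 9.20 to 9.32 on cSix1 KO arrays lay within the 9.09 to 9.50 of the controls. Of 6 skeletal muscle markers, all at percentile 98.6 or higher in the controls, 0 were called in TA. Of these markers 1 fell in the gastrocnemius (0.833% of all genes): Tcap, a protein of the Z-disc (-0.38, adjusted p = 0.0389 from limma). Their mean signal was 11.95 to 11.96 on control and 11.71 to 11.88 on shlincMYH arrays, and 13.20 to 13.22 on control and 13.02 to 13.09 on cSix1 KO arrays.

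Smooth muscle, fibroblast and Schwann cell markers had 0 calls in either tissue. Medians were -0.46, 0.05 and -0.42 in TA and -0.07, 0.31 and 0.21 in the gastrocnemius, over 4, 5 and 2 genes. The TA control arrays, which differed by 2.01 for Tnnt1 and 2.32 for Tnnc1 but by 0.152 for Tnni1, also differed for several of these markers. The mean signal of the smooth muscle list was 7.03 on control replicate 1 and 5.95 on replicate 2, and that of the Schwann cell list 7.34 and 6.26. Pmp22, a myelin gene, was at 8.96 on control replicate 1 and at 7.46 on replicate 2, with 7.54 and 7.73 on the shlincMYH arrays, and Cd68, of macrophages, was at 8.04 and 6.20 with 7.05 and 7.21. The part of these cells in the troponin values was not tested.

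Troponin genes lie in the genome as neighbors of each other, and their positions were read from the RefSeq order of genes. On chromosome 1 the order is Phlda3, Tnni1, Lad1, Tnnt2 and Pkp1, on chromosome 7 Ppp1r12c, Tnnt1, Tnni3 and Dnaaf3, and elsewhere on chromosome 7 Syt8, Tnni2, Lsp1, Prr33, Tnnt3 and Mrpl23. Tnnc1 lies between Nisch and Sema3g on chromosome 14, and Tnnc2 between Ube2c and Snx21 on chromosome 2. Limma called 0 of the genes next to a troponin gene in either comparison. Lad1, an anchoring filament protein, lies between Tnni1 and Tnnt2, which both rose in the gastrocnemius, and stood at -0.07 (standard error 0.13) in TA and 0.04 (standard error 0.14) in the gastrocnemius. Tnni3, next to Tnnt1, stood at -0.02 and 0.16 beside 2.76 and 1.32 for Tnnt1, and Ppp1r12c, a phosphatase subunit on the other side of Tnnt1, at 0.05 in both.

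**Figure D5:**
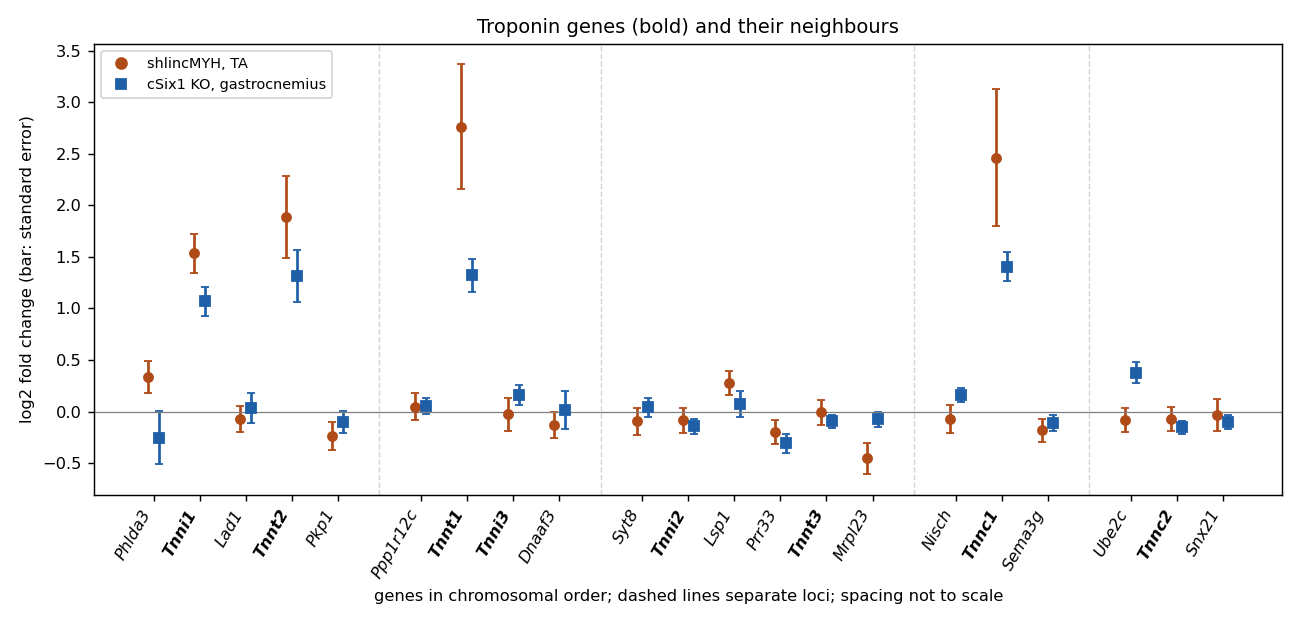
Log2 fold changes with standard errors of the troponin genes (bold) and their neighbors in the order of the genes along each chromosome, in TA (circles) and gastrocnemius (squares). The slow troponins and Tnnt2 stand at 1.07 or higher in both comparisons, while the neighbors lie between -0.45 and 0.38.

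Beside the fast genes, Prr33, a transcript between Tnni2 and Tnnt3, was lower on every cSix1 KO array (-0.31, adjusted p = 0.171 from limma) and on both shlincMYH arrays (-0.20), and Mrpl23, a mitochondrial ribosomal protein gene, was at -0.45 in TA and -0.08 in the gastrocnemius. Lsp1, a leukocyte actin-binding protein, was at 0.28 and 0.07, and Syt8, a synaptotagmin, at -0.09 and 0.04. Nisch, Sema3g and Snx21 lay between -0.18 and 0.16 in both comparisons, as did Dnaaf3, and Pkp1, a plakophilin, was at -0.24 and -0.10. Phlda3, a target of p53, was at 0.33 in TA and -0.25 in the gastrocnemius.

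The genes most like each member were ranked by the correlation, over the 10 arrays, of the signal minus the control mean of the tissue, among 9962 genes brighter than the median. The arrays share groups and preparation, and the 10 points are not independent, so these values describe the pattern only. For Tnnt1 they were Myoz2, a calsarcin of slow and cardiac fibers, with r = 0.976, Ncam1, a neural cell adhesion molecule, with r = 0.972, and Aif1l with r = 0.970. For Tnnc1 they were Kctd5 with r = 0.976, Myoz2 with r = 0.968 and Myog with r = 0.966. For Tnni1 they were Eif3l, a translation initiation factor subunit, with r = 0.973, Atp13a3, a transport ATPase, with r = 0.967 and Nup214, a nucleoporin, with r = 0.966. For Tnnt2 they were the imprinted Peg3 with r = 0.981, Maged1 with r = 0.971 and Chrna1 with r = 0.970. Among the members, Tnnt1 and Tnnc1 had r = 0.988 and Tnnt1 and Tnni1 r = 0.916, whereas Tnnt1 with Myh7 had r = 0.137 and with Tpm3 r = 0.0659. Both tissues are pooled in these values. In the gastrocnemius Myh7 (log2 fold change 1.15) and Tpm3 (1.03) rose as Tnnt1 did (1.32), while in TA they stood at -0.33 and -0.59 beside 2.76.

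Myoz2, which was near the top for both Tnnt1 and Tnnc1, was at 8.94 and 8.38 on the TA control arrays and at 9.58 and 9.68 on the shlincMYH arrays. In the gastrocnemius it was at 11.57, 11.30 and 11.47 on the control arrays and at 11.81, 11.97 and 11.79 on the cSix1 KO arrays. It passed in neither comparison (log2 fold changes 0.97 and 0.41, with adjusted p = 0.393 and 0.0751 from limma), and its groups were apart in both. Of the 11 genes ranked in this way, Aif1l (0.41, adjusted p = 0.0423 from limma) and Myog were called in the gastrocnemius, where 0.908% of all genes were called higher. In TA 0 were called. The genes were picked on these same arrays for following members that differed between groups. Their calls and separated groups follow largely from that choice and are no further result.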

How the data were processed

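Per the labels and the methods, RMA made the log2 signals that the authors deposited; it equalizes the arrays' distributions and can compress large differences. The notes on processing name RMA and Partek without versions and the methods name R. Labels and methods disagree about kit and input, and the methods about the age at electroporation. Of 35556 probe sets, the 21789 naming 1 gene symbol were used, and the brightest over all arrays represented each of the 999 genes that had several. Fits were made with limma 3.58.1 (R 4.3.3), separately for TA and gastrocnemius, and adjusted over 19938 genes by the Benjamini-Hochberg method at 0.05. On simulated data they recovered 40.2% of 2-fold and 78.6% of 4-fold changes in TA, and 92.6% and 99.2% in the gastrocnemius. A change of the same size was thus called less often in TA, so calls in 1 tissue only do not show a difference between the comparisons. Python 3.11.15, pandas 2.3.3 and matplotlib 3.10.9 served for tables and plots. The number of arrays limits the precision. The members and lists were chosen with earlier results of these data known. Named were all members, from each pathway list the called genes or otherwise up to 4 with the largest moderated statistic, the neighbors of troponin genes, and the 3 genes most like each slow troponin and Tnnt2; the cell markers named singly, and any other gene, were chosen after their values were seen. The alternatives covered scaling (quantile, median centring), dim genes left out, averaged probe sets, 1 fit of all 10 arrays, a trended robust prior, weighted arrays, a replicate block, the methods' t-test and omission of each array. Some genes are not reported here.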

Additional observations from a re-analysis of the deposited data

Results flagged for a closer look

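Ube2c, a ubiquitin-conjugating enzyme of the cell cycle that lies next to Tnnc2, had every shlincMYH array below both controls in TA, a pattern of 23.0% of all genes, and every cSix1 KO array above every control in the gastrocnemius. Neither log2 fold change passed: it was -0.08 in TA (standard error 0.11, adjusted p = 0.893 from limma), within its error, and 0.38 in the gastrocnemius (standard error 0.10, adjusted p = 0.125). Its signal was 5.75 and 5.70 on the TA control arrays and 5.63 and 5.67 on the shlincMYH arrays, and 6.46, 6.84 and 6.71 on the gastrocnemius control arrays and 7.09, 7.05 and 7.00 on the cSix1 KO arrays. The TA minus gastrocnemius difference of the log2 fold changes was -0.46, and it did not pass over all genes (adjusted p = 0.286 from limma).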

How the results depend on the processing

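The 4 troponin genes called in the gastrocnemius were also called with quantile normalization, centring, dim genes left out, the mean of all probe sets and array weights. With all 10 arrays in 1 fit the count was 1 (Tnni1), and with the methods' t-test after adjustment 0. Leaving out 1 array gave 1 to 4, with 1 (Tnnc1) without cSix1 KO replicate 1 or 2. An intensity trend with a robust prior left 3. In TA all 10 arrays in 1 fit called 2, Tnnt1 and Tnni1, and every other alternative, the methods' t-test included, 0. For the difference between the comparisons leaving out 1 array gave 0 to 1 called, and the other alternatives 0. The groups share replicate numbers. In the gastrocnemius same-numbered arrays correlated at 0.216, -0.137 and 0.084, so the numbers were not taken as pairs, and with the replicate number as a block 3 members were called, Tnnt2 being lost (adjusted p = 0.0734 from limma). In TA the methods put the control into the opposite leg, the labels do not say that a number marks a mouse, and same-numbered arrays correlated at 0.185, so that whether the 2 pairs share a mouse was not settled. The block called 0 in TA, with a lower unadjusted p for Tnnt1 (0.000114 in place of 0.00336, adjusted p = 0.0932 from limma), and 0 for the difference.

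Signs turned only for values near 0 or resting on 1 TA array. In TA, Tnnt3 was at 0.0245 and Tnni3 at 0.0076 after centring, and without 1 array they ran from -0.081 to 0.0665 and from -0.216 to 0.168. In the gastrocnemius Tnnt3 was at 0.0070 with quantile normalization, and its difference between the comparisons at -0.0249. Without 1 array that difference ran from -0.103 to 2.22 for Tnnc1, -0.094 to 1.24 for Tnnt2, -0.0254 to 0.14 for Tnni2 and -0.38 to 0.0042 for Tnni3. Slow minus fast shifts kept their sign in each alternative run; without 1 array they ran from 1.32 to 3.79 in TA and from 1.07 to 1.65 in the gastrocnemius. The causes were not tested. With dim genes left out Tnni3 was not tested.

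Over all genes, counts higher and lower in the gastrocnemius were 181 and 166, against 564 and 425 with array weights, 119 and 67 with the block, 261 and 282 with the trend, 214 and 246 with dim genes left out, 142 and 247 after centring, 3 and 1 with the methods' t-test, and 32 to 351 and 19 to 209 without 1 array. In TA they were 3 and 0, against 105 and 26 with all 10 arrays in 1 fit and 10 and 0 after centring. No scaling moved the median of all genes by over 0.1.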
